A study of Mus musculus with 8 samples.

Results

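The Notch genes described here are 10 of the 50578 genes counted in the series: the receptors Notch1, Notch2 and Notch3, the ligands Jag1, Jag2 and Dll1, and the target genes Hes1, Hey1, Hey2 and Heyl. They were chosen by gene symbol as members of the Notch pathway, and each symbol matched 1 row of the count table. Notch receptors are membrane proteins that are cut when a ligand on a neighbouring cell binds them. The released intracellular part enters the nucleus, joins the DNA-binding protein RBPJ and a Mastermind coactivator, and switches on target genes of the Hes and Hey families, which encode transcriptional repressors. In connective tissue and vessel walls the pathway is best known for its part in fate choices, including the differentiation of vascular smooth muscle.

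Mouse embryonic fibroblasts (MEFs), primary cells grown from embryos with the head, tail, limbs and internal organs removed, were the starting cells of an experiment on small molecules predicted to move fibroblasts toward a hepatocyte state. Bulk RNA sequencing covered 4 groups of 2 libraries. The MEF group was the control, labelled as wild type. The other groups were the same kind of cells with 10 µM carbidopa, an inhibitor of aromatic L-amino acid decarboxylase, 10 µM LY-364947, an inhibitor of the TGF-beta type I receptor, or 10 µM CHIR-99021, an inhibitor of the kinase GSK3 that activates Wnt signalling. The labels spell the second compound LY-364747, and the name in the study's methods is used below. All groups shared the C57BL/6J strain, isolation at embryonic day E13.5, passages P3 to P5 and serum-containing medium, and the medium was renewed with compound during treatment. The sources used here do not name the length of treatment behind the RNA libraries or a vehicle in the MEF cultures. They also do not say whether the libraries of a group came from separate cultures, so the p-values measure the spread between these libraries, which may be technical.

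Reads per library ranged from 15039566 to 20504338. The carbidopa libraries differed from each other more than those of any other group: chi-square per degree of freedom over genes was 36.4 in the carbidopa pair and from 4.34 to 9.37 in the other pairs. In counts per 1000000 reads (CPM), summed fibroblast markers spanned 15900 to 16100 without compound and 5910 to 7790 with one, with 7 of 10 markers lower and 2 higher in each treatment. No hepatocyte marker passed the filter on low counts, and 7 of 10 had at most 3 reads in every library, among them Serpina1a and Tat at 0 throughout. Their sum was 0.297 to 0.645 CPM in MEF libraries and 1.22 to 1.57 CPM in treated ones. Levels below are CPM with library sizes scaled by TMM, or CPM per kilobase of exon where genes are compared with each other. A gene is said to rise or fall where edgeR's quasi-likelihood test, fitted to all 8 libraries, gave a Benjamini-Hochberg adjusted p under 0.05 over 15154 genes. The 3 comparisons with MEF share the MEF libraries.

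Promoters of 3 members are shown, for the gene that was higher in every treatment (Notch2), the gene that was lower in every treatment with ample reads (Jag1), and the member whose promoter held the searched RBPJ letters (Hey2). Each sequence runs 5′ to 3′ on the gene's strand, from 250 bases before to 50 bases after the RefSeq start in GRCm38.p6, and capitals mark TGGGAA or its reverse complement TTCCCA.
Notch2 promoter, chr3:98013288-98013587, plus strand: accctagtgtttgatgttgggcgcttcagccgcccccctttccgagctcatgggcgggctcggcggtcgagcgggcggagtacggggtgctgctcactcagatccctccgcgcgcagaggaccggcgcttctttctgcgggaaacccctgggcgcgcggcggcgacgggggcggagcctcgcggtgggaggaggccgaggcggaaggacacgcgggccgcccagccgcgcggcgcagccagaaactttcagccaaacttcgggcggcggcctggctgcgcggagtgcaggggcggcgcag
Jag1 promoter, chr2:137116471-137116770, minus strand: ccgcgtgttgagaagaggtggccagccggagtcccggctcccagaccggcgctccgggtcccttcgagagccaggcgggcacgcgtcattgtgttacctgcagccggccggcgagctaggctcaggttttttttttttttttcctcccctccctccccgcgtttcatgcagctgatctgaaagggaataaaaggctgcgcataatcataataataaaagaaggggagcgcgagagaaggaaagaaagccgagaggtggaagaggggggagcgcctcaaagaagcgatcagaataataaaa
Hey2 promoter, chr10:30842734-30843033, minus strand: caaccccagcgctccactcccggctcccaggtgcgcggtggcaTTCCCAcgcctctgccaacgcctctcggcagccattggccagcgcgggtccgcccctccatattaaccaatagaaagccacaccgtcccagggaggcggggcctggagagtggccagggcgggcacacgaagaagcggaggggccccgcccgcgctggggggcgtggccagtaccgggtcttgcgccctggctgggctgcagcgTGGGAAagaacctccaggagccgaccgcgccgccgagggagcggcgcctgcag
Of the 10 members, 7 matched a RefSeq promoter entry, and Hes1, Hey1 and Heyl did not. The letters TGGGAA, the core bound by RBPJ, were searched on both strands and occurred in the Hey2 promoter, with matches that begin 207 and 3 bases before the start. The other 6 matched members had none in this window, and 25.6% of all 32851 RefSeq promoters of this length hold at least 1 match. The palindrome CACGTG, an E-box class bound by HES and HEY proteins, was found in no matched member and in 7.2% of all promoters. These matches describe letters and do not show binding. Hey2, whose promoter held the RBPJ letters, had at most 36 reads in any library and passed no test, as given below.

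Of the 10 members, 9 passed the filter on low counts, and Hey1 did not. Under carbidopa 6 of the 9 differed from MEF, with Notch2 and Dll1 higher and Notch1, Jag1, Hes1 and Heyl lower. Among all genes tested 37.7% were called in that comparison, 18% higher and 19.7% lower. Under LY-364947 there were 5, with Notch2 higher and Notch1, Jag1, Hes1 and Heyl lower, beside 31% of all genes, 13.7% higher and 17.2% lower. Under CHIR-99021 there were 3, with Notch2 higher and Jag1 and Heyl lower, beside 38.8% of all genes, 18.7% higher and 20.1% lower. Heyl passed the filter only through the MEF group and Dll1 only through the carbidopa and LY-364947 groups. Each passed because some groups were high, and their calls against MEF add nothing to these counts. Jag2, called in no comparison, also passed only through treated groups. The counts and the medians that follow are descriptions. The median absolute log2 fold change of the 9 was 0.71 under carbidopa, 1.02 under LY-364947 and 0.86 under CHIR-99021, against 0.40, 0.33 and 0.40 over all genes tested. Jag2, Dll1, Hey2 and Heyl are among these 9 and had at most 36 reads in any library. Few reads widen the spread of fold changes, and the CHIR-99021 median is the value of Hey2, which passed no test. The carbidopa median is the value of Notch2 and the LY-364947 median that of Hes1, both with ample reads. The members were chosen with earlier results of these data known. For that reason the medians do not show a larger change of the members than of other genes.

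**Figure D1:**
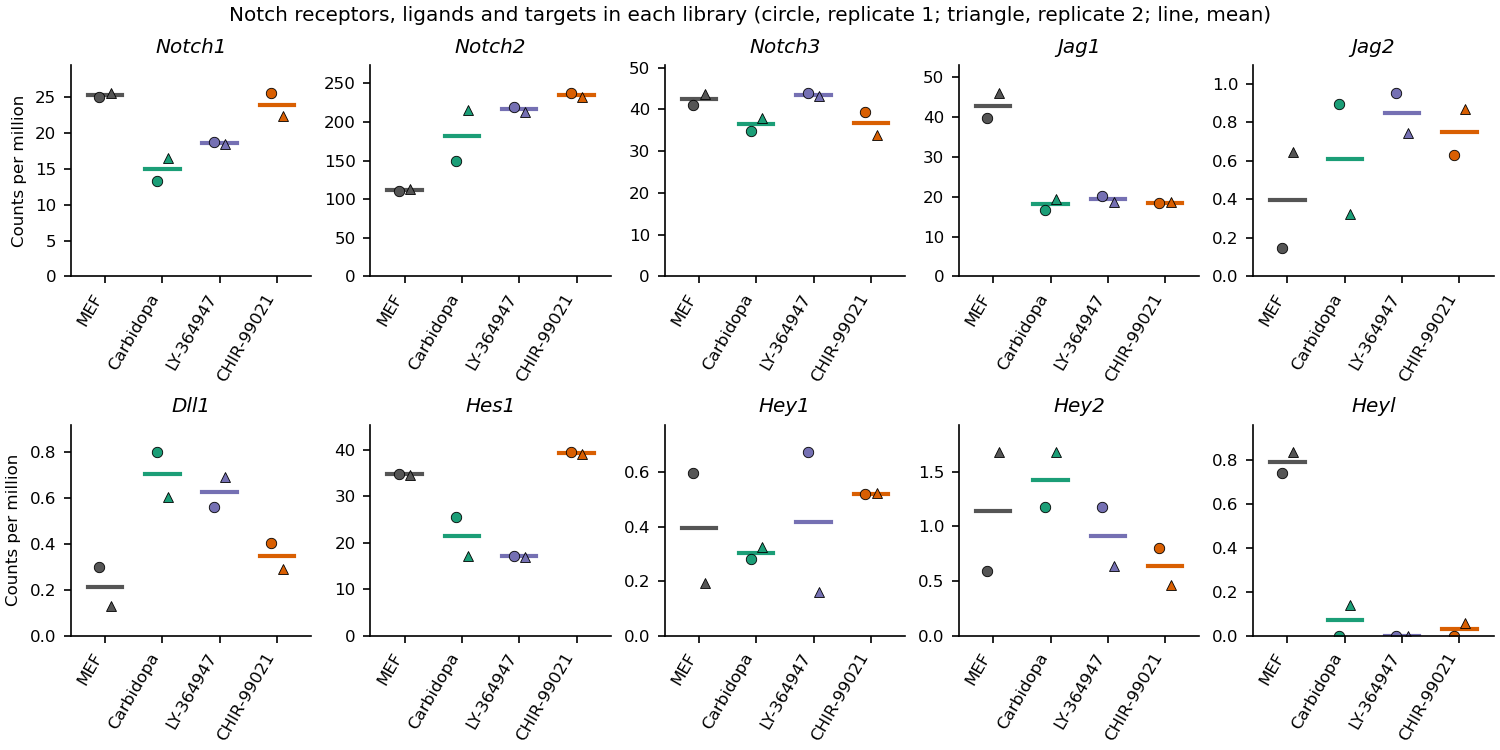
CPM of the 10 Notch members in the 8 libraries. Circles are replicate 1, triangles replicate 2 and lines group means, and each panel has its own linear axis from 0. Notch2 lay from 110 to 114 for MEF and from 149 to 238 for treated libraries, and Jag1 from 39.6 to 46.0 against 16.7 to 20.1.

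Notch2 was the most abundant receptor in every library and the member that rose with each compound. This receptor (ENSMUSG00000027878, chr3:98013527-98150361, plus strand, GRCm38) is widely expressed in mesenchyme and in liver. Its level was 110 and 114 CPM in the MEF libraries, 149 and 216 under carbidopa, 219 and 213 under LY-364947, and 238 and 233 under CHIR-99021. All treated libraries lay above both MEF libraries, and the carbidopa libraries were spread further apart than any other pair. The log2 fold change was 0.71 (SE 0.15, adjusted p = 0.00457) under carbidopa, 0.95 (SE 0.15, adjusted p = 0.000776) under LY-364947 and 1.07 (SE 0.15, adjusted p = 0.000312) under CHIR-99021, the last being 2.10-fold. The carbidopa value was 0.41 without carbidopa replicate 2 and 0.95 without replicate 1, and it stayed past the threshold in both. No difference between compounds passed for Notch2, and the interval of CHIR-99021 minus LY-364947 ran from -0.21 to 0.45 on the log2 scale. CHIR-99021 minus carbidopa was 0.37 (95% interval 0.04 to 0.70, adjusted p = 0.129). It was 0.66 without carbidopa replicate 2 and 0.13 without carbidopa replicate 1.

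Notch1 moved the other way under carbidopa and LY-364947. This receptor (ENSMUSG00000026923, chr2:26457903-26516663, minus strand) is the founding mammalian member of the family. MEF libraries held 25.0 and 25.6 CPM, carbidopa libraries 13.3 and 16.5, LY-364947 libraries 18.8 and 18.5, and CHIR-99021 libraries 25.5 and 22.4. The carbidopa and LY-364947 libraries were below every MEF library, whereas those under CHIR-99021 overlapped MEF. Notch1 fell by 0.76 on the log2 scale under carbidopa (SE 0.14, adjusted p = 0.00178) and by 0.44 under LY-364947 (SE 0.14, adjusted p = 0.0338). The call under LY-364947 was lost when any 1 library of the pair of groups was left out, with values from -0.46 to -0.43 and an adjusted p of up to 0.162. Under CHIR-99021 the change was -0.08 (95% interval -0.38 to 0.22, adjusted p = 0.68). The difference between CHIR-99021 and carbidopa was itself called, at 0.68 (SE 0.14, adjusted p = 0.00886), beside 14.7% of all genes in that comparison. It missed the threshold without CHIR-99021 replicate 1 (0.59, adjusted p = 0.101) and when those groups were fitted alone (adjusted p = 0.0512). The difference between CHIR-99021 and LY-364947 was 0.36 (95% interval 0.06 to 0.67, adjusted p = 0.111). The annotation holds the opposite-strand transcripts 0610009E02Rik and Gm13568 across exons of Notch1, and 8.77% of its 75-base words are shared with them. 0610009E02Rik had 2 to 3 reads in MEF libraries and 15 to 33 in treated libraries. The strand setting of the counting is not given in the sources used here.

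Notch3, the receptor best known from vascular smooth muscle cells and pericytes, passed no test in any comparison. The gene (ENSMUSG00000038146) lies at chr17:32120820-32166852 on the minus strand. Its level was 41.1 and 43.6 CPM in MEF libraries, 34.8 and 38.0 under carbidopa, 44.0 and 43.1 under LY-364947, and 39.4 and 33.9 under CHIR-99021. Carbidopa and CHIR-99021 libraries lay below the MEF libraries by amounts near the spread between replicates. The log2 fold changes were -0.22 (95% interval -0.47 to 0.03), 0.04 (-0.21 to 0.29) and -0.21 (-0.46 to 0.04) in the same order of compounds. These intervals do not reach the size of the Notch2 changes in either direction.

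Set against each other per kilobase of exon, the receptors differed in their shares between MEF and treated libraries. The length counts all annotated exons of a gene and is longest for Notch1, at 14232 bases. Levels compared between genes, and the shares, therefore depend on the annotation. A gene whose expressed transcripts are shorter than this length is set too low. Notch2 stood at 10.2 and 10.5 CPM per kilobase in MEF libraries, Notch3 at 5.08 and 5.40, and Notch1 at 1.76 and 1.80. Notch4, a receptor known from endothelium that is not one of the 10 members, was near 0, at 0.0553 and 0.0160. The sum of the 4 receptors was 17.1 and 17.7 in MEF libraries, 19.3 and 26.2 under carbidopa, 27.4 and 26.6 under LY-364947, and 29.1 and 27.8 under CHIR-99021. Notch2 made up 59.7% and 59.4% of that sum in MEF libraries, 71.5% and 76.5% under carbidopa, 74.4% in both LY-364947 libraries, and 75.8% and 77.8% under CHIR-99021. The share of Notch3 went from 29.7% and 30.4% in MEF to between 15.1% and 22.3% in treated libraries. The share of Notch1 was 10.3% and 10.1% in MEF and between 4.44% and 6.16% in treated libraries, CHIR-99021 included, where its own level did not pass the test.

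**Figure D2:**
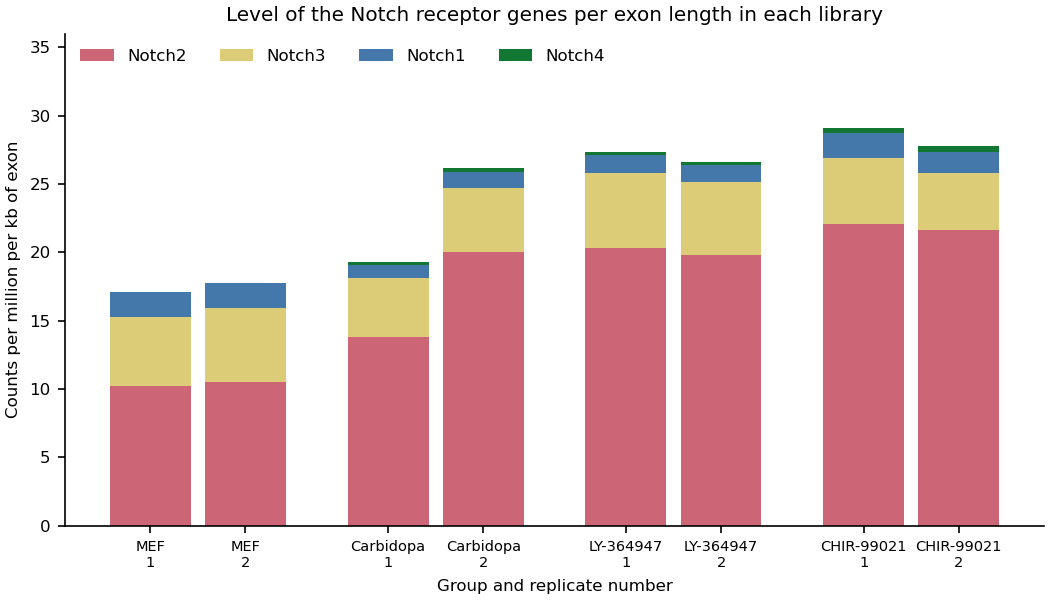
Level of the receptor genes Notch2, Notch3, Notch1 and Notch4 in each library, stacked, in CPM per kilobase of exon. The stacks reach 17.1 and 17.7 for MEF and 19.3 to 29.1 for treated libraries, and the Notch2 segment goes from 10.2 and 10.5 to between 13.8 and 22.1.

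Jag1 was the most highly expressed of the 3 ligand genes per kilobase and fell with each compound. Jagged1, its product, is the ligand linked to smooth muscle of vessel walls and to bile duct formation (ENSMUSG00000027276, chr2:137081456-137116644, minus strand). It was at 39.6 and 46.0 CPM in MEF libraries, 16.7 and 19.4 under carbidopa, 20.1 and 18.8 under LY-364947, and 18.3 and 18.7 under CHIR-99021. The 6 treated libraries spanned 16.7 to 20.1 and none came near the MEF libraries. Jag1 fell by 1.25 on the log2 scale under carbidopa (SE 0.13, adjusted p = 3.42e-05), by 1.14 under LY-364947 (SE 0.13, adjusted p = 6.93e-05) and by 1.21 under CHIR-99021 (SE 0.13, adjusted p = 4.3e-05). These are 2.37-fold, 2.20-fold and 2.31-fold lower levels. Every alternative setting and every left-out library kept the call, with adjusted p-values of at most 0.0022. Between compounds no difference passed, and the widest of the 3 intervals, CHIR-99021 minus LY-364947, ran from -0.36 to 0.22.

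The other ligand genes were close to the detection limit. Jag2, which encodes the second Jagged ligand (ENSMUSG00000002799, chr12:112907819-112929776, minus strand), had 2 and 10 reads in MEF libraries, 19 and 7 under carbidopa, 17 and 14 under LY-364947, and 11 and 15 under CHIR-99021. Its log2 fold changes of 0.56, 1.04 and 0.86 had standard errors of 0.68 to 0.69 and no adjusted p under 0.284, so a difference was not detectable at this depth. Dll1, a Delta-like ligand known for its part in somite formation and neurogenesis (ENSMUSG00000014773, chr17:15367354-15376872, minus strand), had 4 and 2 reads in MEF libraries, 17 and 13 under carbidopa, 10 and 13 under LY-364947, and 7 and 5 under CHIR-99021. The carbidopa and LY-364947 libraries were above both MEF libraries.

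The log2 fold change of Dll1 under carbidopa was 1.72 (SE 0.59, adjusted p = 0.0433), for a gene that passed the filter only through the groups where it was high, so the call is given as a description. The pooled read ratio was 3.39, with a 95% interval of 1.39 to 9.96 that covers counting error only. The call was lost with DESeq2 (adjusted p = 0.189), without the filter (0.0719), with the compared groups alone (0.0749), with a replicate block (0.0585), and without MEF replicate 1 (0.0843), MEF replicate 2 (0.293) or carbidopa replicate 1 (0.165). Under LY-364947 the change was 1.56 (95% interval 0.20 to 2.92, adjusted p = 0.0804), and under CHIR-99021 it was 0.72 (-0.79 to 2.22, adjusted p = 0.434). No difference between compounds was called for Dll1. An opposite-strand gene, A930024N18Rik, shares 13.7% of the 75-base words of Dll1 and itself had 0 to 4 reads.

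Hes1 was the only target gene with ample reads, and it separated CHIR-99021 from the other compounds. HES1 is a repressor of the basic helix-loop-helix family that answers to Notch and also to other signals (ENSMUSG00000022528, chr16:30064384-30067796, plus strand). Its level was 34.8 and 34.6 CPM in MEF libraries, 25.5 and 17.2 under carbidopa, 17.2 and 17.0 under LY-364947, and 39.5 and 39.1 under CHIR-99021. LY-364947 and carbidopa libraries were all below MEF, and both CHIR-99021 libraries were slightly above it.

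Hes1 fell under LY-364947 by 1.02 on the log2 scale (SE 0.17, adjusted p = 0.000904), a level 2.03-fold lower. Under carbidopa it fell by 0.70 (SE 0.16, adjusted p = 0.00736). That value was -1.01 without carbidopa replicate 1 and -0.44 without replicate 2, still past the threshold in each. Under CHIR-99021 the change was 0.18 (95% interval -0.17 to 0.53, adjusted p = 0.399). The differences between compounds were called: Hes1 was higher under CHIR-99021 than under carbidopa by 0.88 (SE 0.16, adjusted p = 0.00539), and higher than under LY-364947 by 1.20 (SE 0.16, adjusted p = 0.00109), beside 14.1% of all genes in the latter comparison. Both were called under every alternative and with any library left out. LY-364947 and carbidopa differed by -0.32 (95% interval -0.69 to 0.04, adjusted p = 0.519). This difference was -0.58 without carbidopa replicate 2 and -0.0139 without carbidopa replicate 1.

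The Hey family, which encodes repressors related to HES proteins and is expressed in heart and vessels, was near its floor in every group. Heyl (ENSMUSG00000032744, chr4:123233556-123249875, plus strand) had 10 and 13 reads in MEF libraries, 0 and 3 under carbidopa, 0 and 0 under LY-364947, and 0 and 1 under CHIR-99021. No treated library reached the reads of either MEF library. Pooled over each group and scaled to library size, MEF held 11.3 times the Heyl reads of carbidopa (95% interval 3.42 to 58.8) and 27.5 times those of CHIR-99021 (4.46 to 1130). Heyl was at least 9.69-fold lower under LY-364947 when counted against a floor of 3 reads over the group, and the exact 95% interval of that ratio, which also covers the counting error of the MEF reads, begins at 7.27. The gene was called in each comparison with MEF. It was tested only because its MEF level was high enough for the filter, so these calls are no evidence of a change. The carbidopa call was lost with DESeq2 (0.0705), without MEF replicate 1 (0.0762) and without carbidopa replicate 1 (0.0763), and the CHIR-99021 call without CHIR-99021 replicate 1 (0.108).

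Hey2 (ENSMUSG00000019789, chr10:30832359-30842801, minus strand) had 8 and 26 reads in MEF libraries, 25 and 36 under carbidopa, 21 and 12 under LY-364947, and 14 and 8 under CHIR-99021. Every treated group overlapped the MEF pair in Hey2. Its log2 fold changes of 0.30, -0.35 and -0.86 had standard errors of 0.51 to 0.58 and no call. The pooled ratios of Hey2 to MEF were 1.22 (95% interval 0.787 to 1.91), 0.768 (0.461 to 1.28) and 0.541 (0.302 to 0.953), with intervals that cover counting error only. Hey1 (ENSMUSG00000040289, chr3:8663359-8667256, minus strand) had 8 and 3 reads in MEF libraries, 6 and 7 under carbidopa, 12 and 3 under LY-364947, and 9 and 9 under CHIR-99021. It was too low to test, and its pooled ratios to MEF were 0.801 (95% interval 0.331 to 1.98), 1.08 (0.463 to 2.6) and 1.37 (0.612 to 3.21) in the same order. Differences of up to about the size of these intervals were not detectable for Hey1.

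**Figure D3:**
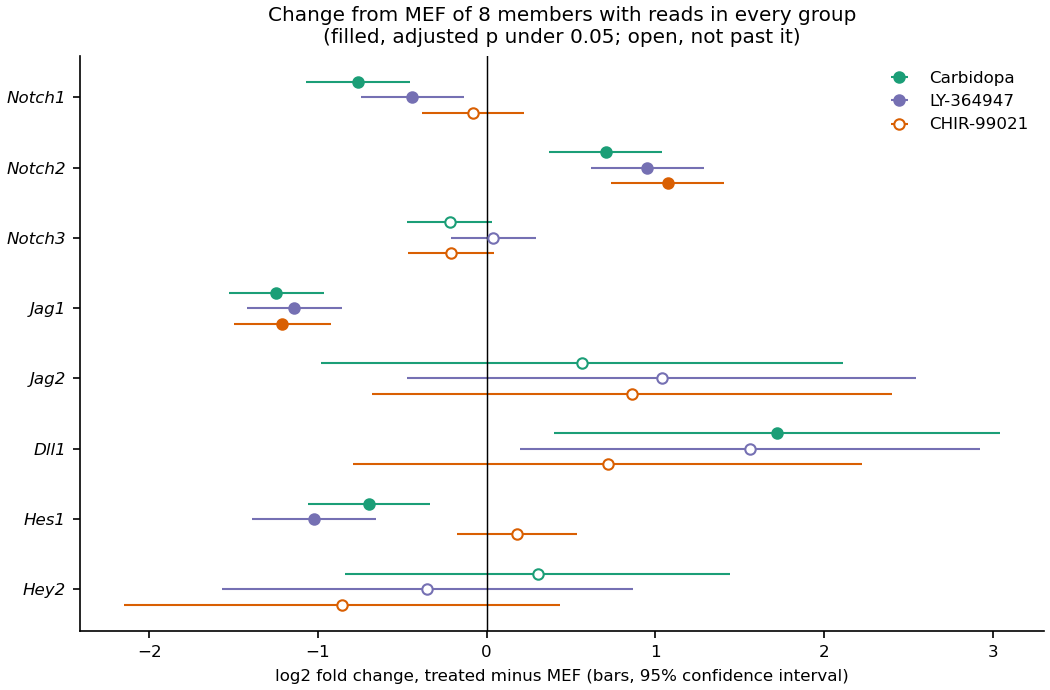
Log2 fold change from MEF of 8 members with reads in every group, with 95% intervals; filled points have an adjusted p under 0.05. Jag1 lies near -1.2 with each compound, Notch2 between 0.71 and 1.07, and Hes1 at -0.70, -1.02 and 0.18 under carbidopa, LY-364947 and CHIR-99021, while the intervals of Jag2, Dll1 and Hey2 are wide. Heyl, with no reads in the LY-364947 libraries, and Hey1, which was not tested, are left out.

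Per kilobase of exon, the order of the members in MEF libraries was Hes1 (17.0 ± 0.0530, SD, n = 2, in CPM per kilobase), Notch2 (10.4 ± 0.219), Jag1 (7.35 ± 0.780), Notch3 (5.24 ± 0.224) and Notch1 (1.78 ± 0.0276). The libraries of these neighbours did not overlap. The remaining 5 members, in the order Hey2, Heyl, Hey1, Jag2 and Dll1, were at or below 0.365 in both MEF libraries, and each overlapped its neighbour. Under CHIR-99021, Notch2 (21.8 ± 0.314) stood above Hes1 (19.3 ± 0.133). Under LY-364947, Notch2 (20.1 ± 0.396) stood above Hes1 (8.39 ± 0.0467). In the carbidopa libraries Notch2 was at 13.8 and 20.02 and Hes1 at 12.5 and 8.47. Jag1 moved below Notch3 in all 3 treatments, at 2.87 to 3.46 against 4.19 to 5.44.

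Between LY-364947 and carbidopa no member passed the test, beside 0.0132% of all genes, which is 2 of 15154. At an unadjusted p under 0.05, 1369 of all genes differed, and DESeq2 called 16. Notch1 (0.32, unadjusted p = 0.0427) and Notch3 (0.26, unadjusted p = 0.0436) were the members with an unadjusted p under 0.05. Without carbidopa replicate 2, edgeR called 3 members in this comparison (Notch1, Notch2 and Hes1) and 3816 of all genes.

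Of 64 other genes of the pathway, 56 passed the filter. Relative to MEF, 12 were higher and 11 lower under carbidopa, and 10 higher and 11 lower under LY-364947. Under CHIR-99021, 14 were higher and 12 lower. These are 41.1%, 37.5% and 46.4% of those tested, against the 37.7%, 31% and 38.8% of all genes above. Notch4, Dlk2 and Dtx1 passed the filter only through treated groups, and Neurl1b only through the MEF group. Their calls against MEF add nothing to these counts, which are descriptions. Between compounds, none differed for LY-364947 against carbidopa, 10 for CHIR-99021 against carbidopa and 14 for CHIR-99021 against LY-364947. These are 0%, 17.9% and 25% of those tested, beside 0.0132%, 14.7% and 14.1% of all genes. Dll3, Dll4, Mfng, Hes2, Hes3, Hes5, Hes7 and Nrarp were too low to test. Notch4 had 6 and 2 reads in MEF libraries, 45 and 49 under carbidopa, 35 and 28 under LY-364947, and 55 and 58 under CHIR-99021. Its pooled ratios to MEF were 7.97 (95% interval 3.88 to 19.0), 6.23 (2.98 to 15.1) and 11.8 (5.8 to 28), and it was called higher in each comparison. It passed the filter only through the treated groups, so these calls are a description.

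The ligand-like proteins outside the Jagged and Delta families moved in both directions. Mfap2, a microfibril protein that can bind Notch1, was at 34.2 and 38.4 CPM in MEF libraries and from 1.13 to 3.88 in the treated libraries, and fell by 4.42, 4.13 and 3.49 on the log2 scale under carbidopa, LY-364947 and CHIR-99021. Mfap5, its relative, fell by 1.04, 0.95 and 2.01, and the difference between CHIR-99021 and each other compound was called (-0.97 against carbidopa and -1.06 against LY-364947). Nov, a secreted CCN protein that binds Notch1, fell by 1.28, 1.25 and 1.20, and Dner, a membrane protein with Delta-like repeats, by 1.77, 1.64 and 2.20. Dlk2, a Delta-like protein without the receptor-binding domain, had 2 reads in each MEF library and 49 to 128 in treated libraries. It was called higher in each comparison but, like Notch4, passed the filter only through the treated groups. Its pooled ratio to MEF was 42.7 (95% interval 16.5 to 158) under carbidopa, 41.3 (15.9 to 153) under LY-364947 and 20.7 (7.84 to 77.5) under CHIR-99021. Dlk1, which restrains adipocyte formation, rose under carbidopa (1.16, SE 0.14) and LY-364947 (0.81, SE 0.14) and stood at -0.19 under CHIR-99021 (adjusted p = 0.283). It was lower under CHIR-99021 than under carbidopa, by -1.35 (adjusted p = 0.000187), and than under LY-364947, by -1.001 (adjusted p = 0.00106).

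In the nuclear and processing parts of the pathway, the genes called under carbidopa, LY-364947 and CHIR-99021 were 3, 3 and 5 of 8 for the transcription complex, 0, 0 and 3 of 10 for receptor cleavage, 4, 5 and 3 of 12 for corepressors, 7, 6 and 6 of 9 for turnover and inhibition, and 0, 0 and 1 of 4 for receptor glycosylation, beside 37.7%, 31% and 38.8% of all genes. Rbpj, the DNA-binding partner of the cleaved receptors, was at 194 and 219 CPM in MEF libraries and from 200 to 242 in the treated libraries, and passed no test against MEF. Of 8 genes of the transcription complex, Kat2b, an acetyltransferase, rose by 1.31, 1.31 and 0.78 and Snw1, an RBPJ cofactor, by 0.77, 0.47 and 0.55 under carbidopa, LY-364947 and CHIR-99021, while the coactivator Maml2 fell by 0.78, 0.50 and 0.40. Maml1 (0.51) and Kat2a (0.51) rose under CHIR-99021, and there each also differed from the other compounds. Among the genes for receptor cleavage, Furin, which cuts the receptor precursor, rose under CHIR-99021 by 0.81 (adjusted p = 0.000944) and the gamma-secretase subunit gene Aph1b by 0.67 (adjusted p = 0.00689), while Aph1c, its near-identical copy, was lower by -0.95 (adjusted p = 0.0212). How the counting split reads between Aph1b and Aph1c is uncertain.

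Among 12 corepressor genes, Tle3, of the Groucho family, rose by 0.65, 0.79 and 0.97 in the same order of compounds. The corepressors did not rise as a set. Of the 12, 2 were higher and 2 lower under carbidopa. Under LY-364947 1 was higher and 4 lower, and under CHIR-99021 1 was higher and 2 lower. Among 9 genes of turnover and inhibition, Dtx4, a Deltex ubiquitin ligase gene, was at 20.1 and 21.3 CPM in MEF libraries and from 56.7 to 89.3 in treated libraries, a rise of 1.95, 2.05 and 1.46. Dtx2 rose under carbidopa (0.45) and CHIR-99021 (0.74), and Dtx3l fell by 0.53, 0.53 and 0.78. Numbl, a relative of the Notch inhibitor Numb, fell by 0.98, 0.87 and 0.45. Dtx1, counted above among the called genes of this role in each treatment, passed the filter only through the treated groups.

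**Figure D4:**
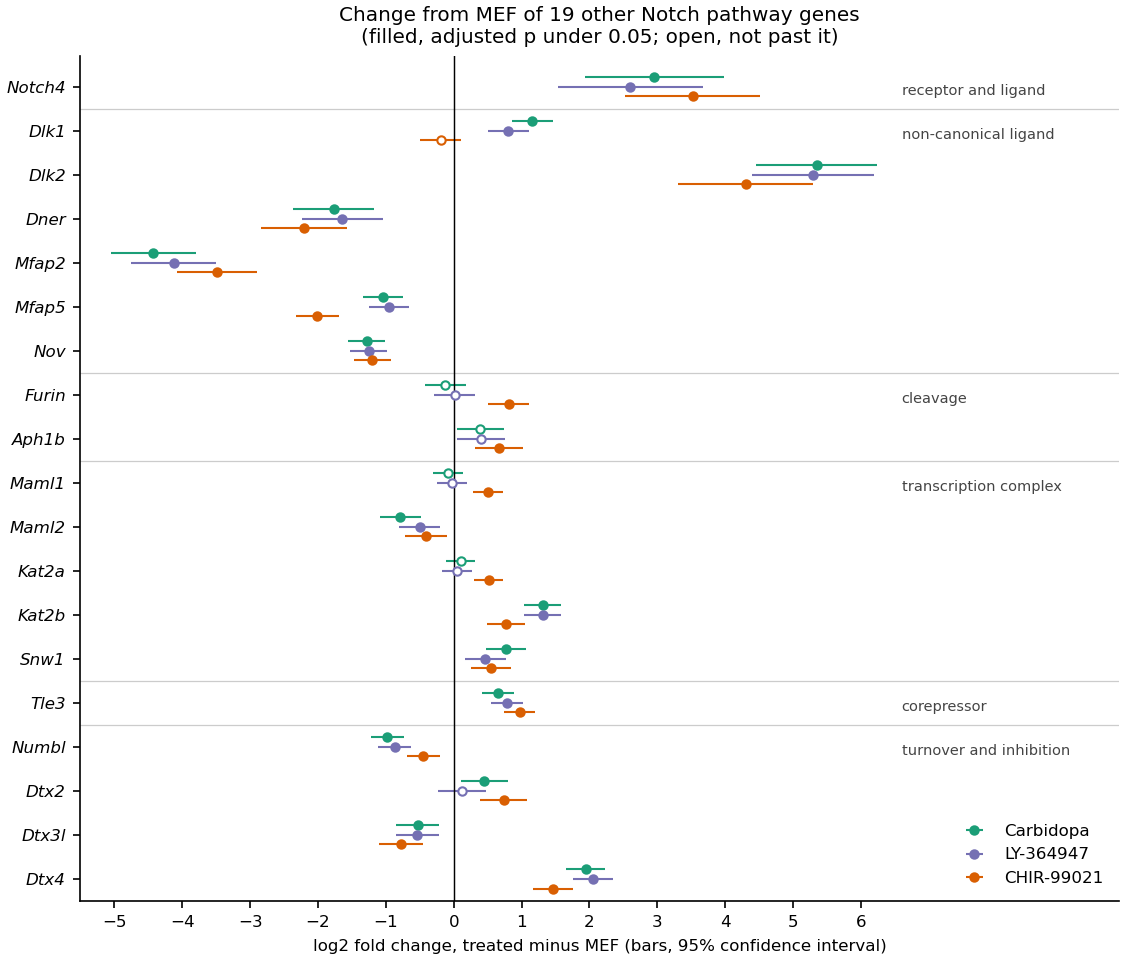
Log2 fold change from MEF of 19 other Notch pathway genes, named by smallest adjusted p and grouped by role, with 95% intervals and filled points for an adjusted p under 0.05. Mfap2 lies between -4.42 and -3.49, Dlk2 between 4.30 and 5.35 and Dtx4 between 1.46 and 2.05, while Furin, Maml1 and Kat2a differ from MEF under CHIR-99021 but not with the other compounds.

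Marker lists of other cells that MEF cultures can hold also differed between MEF and treated libraries. In bulk RNA, fewer cells of a type and less RNA per cell cannot be told apart. Summed mural cell markers were at 3010 to 3300 CPM in MEF libraries, 384 to 452 under carbidopa, 354 to 383 under LY-364947 and 721 to 837 under CHIR-99021. All 10 markers in this list were lower in each treatment. The list includes Acta2, which the study counts as a fibroblast gene, along with Tagln, Cnn1 and Myh11. Its sum need not come from separate mural cells. Summed macrophage markers were at 1140 to 1180 in MEF libraries, 351 to 375 under carbidopa, 262 to 267 under LY-364947 and 85.4 to 93.5 under CHIR-99021, with 12, 12 and 13 of 13 tested markers lower and Cd163 at 0 or 1 read. Summed endothelial markers were at 17.4 to 19.8 for MEF and 11.6 to 15.8 for treated libraries, with 1, 1 and 2 of 3 tested markers lower, and Tie1, Sox17 and Sox18 had at most 1 read in any library. The lower Jag1 and Heyl in every treatment moved in the same direction as the mural, macrophage and fibroblast lists. So did the lower Notch1 and Hes1 under carbidopa and LY-364947. Summed endothelial, biliary and epithelial, and skeletal myoblast markers were also lower in every treatment, while hepatocyte and neural sums were higher. Notch2 rose in every treatment. Hes1 and Notch1 under CHIR-99021 passed no test against MEF. The part of any of these cells in the values of these genes was not tested and cannot be told from bulk RNA.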

How the data were processed

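Reads were aligned to mm10 (STAR 2.4.2a) and assigned to genes (featureCounts) by the authors, who deposited 1 table of whole-number counts, not normalized, for 8 mouse libraries in 4 groups of 2. The annotation release and strand setting are not given in the sources used here. The labels name a SMARTER kit and the study's methods a NEBNext Ultra kit. Groups and replicate numbers came from the sample titles. The row symbols named the members, and 50354 of 50578 gene identifiers (99.6%) were found in GENCODE M21 (GRCm38), from which positions and exon lengths were taken. Exon length is the union of all annotated exons.

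Counts were analysed in R 4.3.3 with edgeR 4.0.16: filterByExpr kept 15154 genes (30%), libraries were scaled by TMM, and quasi-likelihood tests with group as the only term used all 8 libraries in 1 fit, with Benjamini-Hochberg adjustment over all genes tested and a threshold of 0.05. The standard error is the absolute log2 fold change divided by the square root of F, and intervals of fold changes are at the 95% level. The biological coefficient of variation was 11%. Pooled read ratios of low genes have exact binomial 95% intervals. These intervals and the floor of 3 reads per group cover counting error only, since the libraries carried no molecular identifiers. No pair of replicates agreed within sampling noise. Scripts were tested on simulated counts.

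The members and all lists were chosen with earlier results of these data known. All 10 members are named. Other pathway genes are named by a rule: an adjusted p under 0.05 in at least 1 comparison with MEF, no overlap between the treated and MEF libraries, at least 50 normalized counts on average in the group with more, and the 20 smallest adjusted p. Some genes that these rules name are not reported here. Rbpj, Aph1c, Dtx1 and Neurl1b were named after their values were seen. Alternatives were RLE size factors, the Wald test of DESeq2 1.42.0, no filter, at least 10 counts in every library, a replicate block, a fit of only the groups compared, and omission of each library in turn. Promoter sequences are from RefSeq (GRCm38.p6). Figures were drawn with matplotlib 3.10.9.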

Additional observations from a re-analysis of the deposited data

How the results depend on the processing

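Alternatives of 6 kinds and 8 fits without 1 library each were run. Among the log2 fold changes of the members, 467 of the values under alternatives kept their direction and their side of the threshold, 17 lost a call, 6 gained one and 18 changed sign, none of them between called values. The falls of Jag1 under each compound, the rises of Notch2, the falls of Hes1 under carbidopa and LY-364947 and the higher Hes1 under CHIR-99021 than under either kept their calls throughout. Leaving out a library leaves a group with 1 library, which is then assumed to vary like the others.

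For LY-364947 against carbidopa, the genes called became 16 with DESeq2, 329 without the filter and 0 with the groups alone, and the pathway genes called became 1 without the filter. For CHIR-99021 against carbidopa, the pathway genes called became 16 without the filter and 6 with the groups alone, where the members called became 1 and all genes called 1027. For CHIR-99021 against LY-364947 with the groups alone, 2 members and 3673 genes were called. With at least 10 counts in every library, Notch3 in CHIR-99021 against carbidopa changed sign to -0.0018, and Jag2, Dll1, Hey2 and Heyl had no value. The cause was not tested.

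Without 1 library, genes called ranged from 3142 to 7996 (carbidopa against MEF), 2841 to 3095 (LY-364947 against MEF), 3433 to 4709 (CHIR-99021 against MEF), 2 to 3816 (LY-364947 against carbidopa, the highest without carbidopa replicate 2), 715 to 4632 (CHIR-99021 against carbidopa, likewise) and 663 to 1200 (CHIR-99021 against LY-364947). Members called ranged from 3 to 4 (LY-364947 against MEF), 0 to 3 (LY-364947 against carbidopa) and 1 to 3 (CHIR-99021 against carbidopa). Changes of sign lay within these ranges of log2 fold change. Under carbidopa against MEF, Jag2 ranged from -0.32 to 1.98 and Hey2 from -0.23 to 1.25. Under LY-364947 against MEF, Notch3 ranged from -0.0063 to 0.080 and Hey2 from -0.89 to 0.60. Under CHIR-99021 against MEF, Notch1 ranged from -0.17 to 0.018 and Hey2 from -1.39 to 0.087. For LY-364947 against carbidopa, Jag2 ranged from -0.077 to 1.36 and Dll1 from -0.35 to 0.048. For CHIR-99021 against carbidopa, Notch3 ranged from -0.10 to 0.12, Jag1 from -0.063 to 0.15, Jag2 from -0.25 to 1.19 and Heyl from -3.47 to 2.33. For CHIR-99021 against LY-364947, Jag2 ranged from -0.41 to 0.041.

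Same-numbered libraries of different groups correlated from -0.161 to 0.128 in their deviations from the group means, so these values show no clear pairing by number. Whether same-numbered libraries shared a culture or a batch cannot be told from them. With the replicate number as a block, 5470, 4423 and 5722 genes were called against MEF under carbidopa, LY-364947 and CHIR-99021, and 2, 2011 and 1973 between compounds. Among members the block ended only the call of Dll1 under carbidopa (1.72, adjusted p = 0.0585). Depth limits Jag2, Dll1, Hey1, Hey2 and Heyl, which had at most 36 reads in any library.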

Other observations

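Among the tested genes most like Jag1, by Pearson correlation of TMM log2 CPM over the 8 libraries and among 10466 candidates with at least 100 normalized counts, were Ehd2 (r = 0.9969), Zcchc24 (0.9968), Tgfbr2 (0.9967) and Capn6 (0.9959). The points are 4 groups of 2 libraries, and the MEF libraries lie apart from the other 6 in Jag1, so these values describe a shared contrast between MEF and treated libraries.

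The remaining marker lists gave the following values. Summed markers of skeletal myoblasts were at 32.0 to 32.4 CPM in MEF libraries and from 6.67 to 13.7 in treated libraries, with 1 of 2 tested markers lower in each treatment, and 5 of the 7 in the count table had at most 3 reads everywhere, Pax7, Myod1, Myf5 and Myog among them. The gene Des of this list is also in the mural list. Summed biliary and epithelial markers were at 461 to 527 CPM in MEF libraries and 143 to 222 in treated libraries. Of 7 tested, 1 was higher and 4 lower under carbidopa and under LY-364947, and 3 were higher and 4 lower under CHIR-99021. Summed neural markers were at 35.1 to 43.1 CPM in MEF libraries and 99.0 to 130 in treated libraries. Of 4 tested, 1 was higher in each treatment, while 1 was lower under carbidopa and under LY-364947 and 2 under CHIR-99021, and 4 of 8 had at most 3 reads everywhere, among them Sox2, Pax6 and Neurog2.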
